A study of Rattus norvegicus with 6 samples.

Results

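Small RNA reads were examined for 7 miRNA genes of the rat X chromosome, rno-miR-465, rno-miR-743a, rno-miR-743b, rno-miR-742, rno-miR-878, rno-miR-201 and rno-miR-547, in primary sertoli cells cultured with or without 4-nonylphenol (4-NP). The members were all mature miRNA rows of the count table whose name, without a final -3p or -5p, was one of these 7, which gave 13 of 734 mature rows. There were 3 control samples (0 mM 4-NP) and 3 samples treated with 0.5 mM 4-NP for 24 h. Cells of both groups came from testes of 5 to 10 day old Sprague-Dawley rats and were treated at passage 2. 4-NP is an alkylphenol with estrogen-like action, and what the controls received as vehicle is not given in the sources used here. The cells were enriched from whole testis by digestion and culture, so other testis cells could remain, and the labels do not say whether the 3 samples of a group came from separate animals or cultures. The p-values therefore measure the spread between these samples, which may be technical.

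A miRNA is cut as a short RNA from either arm of a hairpin, named 5p and 3p, and pairs with target mRNAs mainly through its seed, bases 2 to 8. The members belong to a group of X-linked miRNAs that lie between Slitrk2, which encodes a neuronal membrane protein, and Fmr1, which encodes the RNA-binding protein FMRP. This group changes fast between mammalian species and is known for high expression in testis, in both sertoli cells and male germ cells. In the RefSeq gene table of the GRCr8 assembly, the 7 genes lay in a row of 17 miRNA genes on chromosome X, split into 2 stretches by 5 protein-coding genes. The first stretch held 14 miRNA genes, among them Mir743a, Mir743b, Mir742, Mir878 and Mir465 in this order. The second stretch held Mir3585, Mir201 and Mir547, and was followed by Mir509 and then Fmr1. Of the 13 member rows, 9 belonged to the first stretch and 4 to the second. Which assembly the authors counted on is not given in the sources used here, so the table was used for names, sequences and gene order only.

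Sequences for 12 of the 13 members were found in RefSeq (GRCr8), and those on which the results turn are printed 5′ to 3′ with the seed in capitals. The first set shows the arms of the first stretch, in which all changes of members that passed the test lay.
miR-743a-5p: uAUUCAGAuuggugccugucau
miR-743a-3p: gAAAGACGccaaacuggguaga
miR-743b-5p: uGUUCAGAcugguguccaucau
miR-743b-3p: gAAAGACAccauacugaauaga
miR-742-5p: uACUCACAugguugcuaauca
miR-742-3p: gAAAGCCAccauguuggguaaa
miR-878: gCAUGACAccauacuggguaga
miR-465-5p: uAUUUAGAacggugcuggugug
miR-465-3p: uGAUCAGUgccuuucugaguag

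The second set shows the arms of the second stretch, whose groups overlapped, except miR-201-3p, for which no sequence was found.
miR-201-5p: cACUCAGUaaggcauuguuc
miR-547-5p: uCACUUCAggauguaccaccca
miR-547-3p: aUUGGUACuucuuuaagugaga

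The third set shows 2 neighbours from the first stretch, one for its seed and the other for its abundance.
miR-871-5p: uAUUCAGAuuggugccggucacau
miR-741-3p: aAAGAUGCcacgcuauguagau

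The 12 members with a sequence did not share a seed with each other. Only miR-743a-5p had the same seed as another rat miRNA of the table, miR-871-5p, and these 2 differed at 2 of 22 aligned bases (90.9% identity). Both miR-742-3p and miR-3551-3p (22 aligned bases) and miR-743a-3p and miR-463-3p (21 aligned bases) differed at 3 bases, with 86.4 and 85.7% identity. miR-743a-3p, miR-743b-3p and miR-878 differed from one another at 4 of 22 bases (81.8% identity). Reads that could come from either member of such a pair are uncertain, since the rule by which the authors assigned them is not given in the sources used here.

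After 4-NP, the reads of the first stretch were lower, while those of the second did not pass the test (the plot of member CPM by sample). Levels are given as CPM, read counts scaled to the sum of mature miRNA reads of the sample,, and the libraries held 20023200 to 23426742 mature reads, of which miR-21-5p took 62.0 to 63.9%. Summed over its 9 members, the first stretch held 29.9, 35.8 and 25.0 CPM in controls 1, 2 and 3, and 3.93, 3.65 and 5.66 CPM in 4-NP samples 1, 2 and 3. All 3 controls were above all 3 4-NP samples, and the means were 30.2 ± 5.39 and 4.41 ± 1.09 CPM (SD, n = 3 each), 6.85-fold lower after 4-NP. The 4 members of the second stretch summed to 543, 234 and 527 CPM in the controls and 635, 457 and 512 CPM after 4-NP. These groups overlapped, with means of 435 ± 174 and 534 ± 90.9 CPM (SD, n = 3 each). In bulk samples, fewer cells that make these miRNAs and less of them per cell cannot be told apart.

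**Figure D1:**
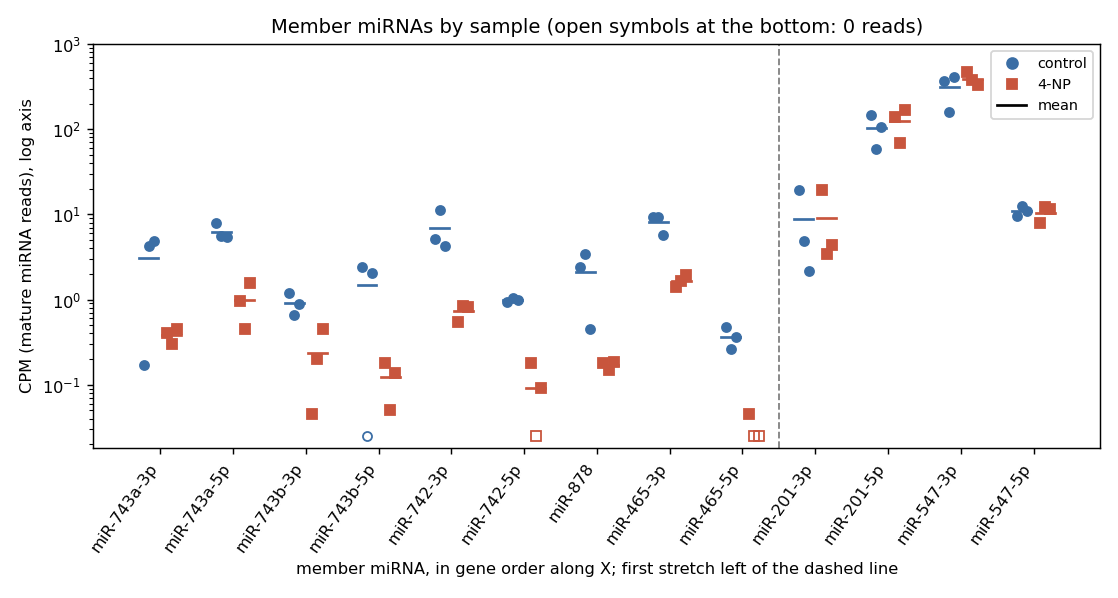
CPM of each member miRNA on a log axis in 3 control samples (circles) and 3 4-NP samples (squares), with horizontal lines for the means and open symbols at the bottom for 0 reads. To the left of the dashed line, 7 of the 9 rows of the first stretch had every control above every 4-NP sample, and to the right the groups of all 4 rows overlapped.

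**Figure D2:**
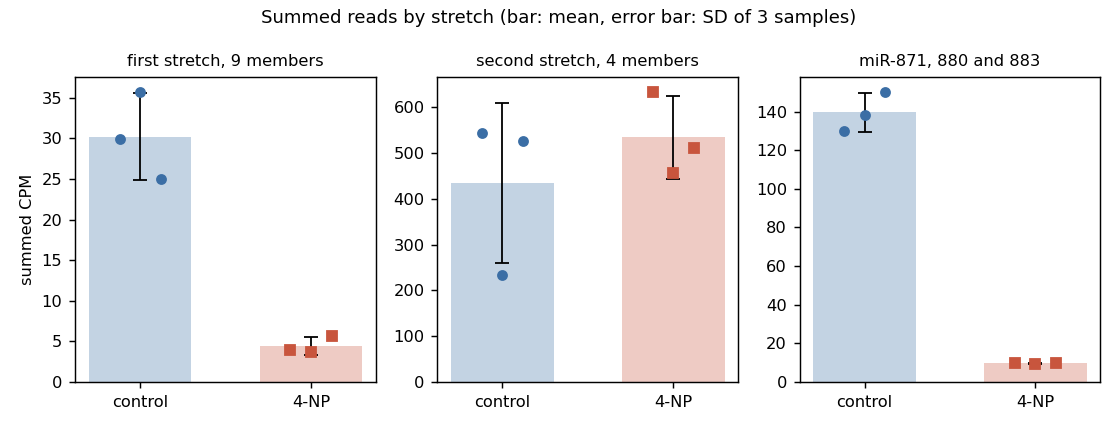
Summed CPM of the 9 members of the first stretch, the 4 members of the second and the neighbouring miR-871, miR-880 and miR-883 rows, with a point per sample, bars for the mean and error bars for the SD of 3 samples. The mean fell 6.85-fold in the first panel and 14.4-fold in the third, while the groups of the second panel overlapped.

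Each member was tested with the quasi-likelihood F test of edgeR (two-sided), fitted on all mature rows and adjusted over the 549 rows that passed its filter on low counts. Of the members, 10 were tested, 4 fell with an adjusted p below 0.05 and 0 were higher, beside 12.8% lower and 7.47% higher among all tested rows. At the study's thresholds (fold change under 0.5, unadjusted p under 0.05), 6 were lower, beside 9.84% of all tested rows. At an unadjusted p under 0.05, 6 members differed, all lower, beside 35.7% of all tested rows in either direction. DESeq2, which gave a value for all 13 members, called 6 lower and 0 higher, beside 9.80% lower and 7.39% higher among the 704 rows to which it gave an adjusted p. Of the 6 tested members of the first stretch, miR-465-3p and miR-742-3p passed the filter in both groups. The other 4 (miR-742-5p, miR-743a-3p, miR-743a-5p and miR-743b-3p) depended on control libraries to pass it, so that the count is a description and no support for a lower level. Without regard to the filter, every control was above every 4-NP sample for 7 of the 13 members, which were all in the first stretch, beside 22.6% of all tested rows. For 0 members was every 4-NP sample above every control, beside 19.9%. These percents cover only rows that passed the filter, while miR-465-5p and miR-878, which are among the 7, did not pass it.

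Both arms of the miR-743a hairpin, the first gene of the first stretch, had fewer reads after 4-NP, and the 5p arm passed the test. miR-743a-5p gave 183, 129 and 120 reads in control samples and 21, 9 and 34 reads under 4-NP. The groups did not overlap. Its control level of 6.26 ± 1.35 CPM compared with 0.984 ± 0.553 CPM in treated cells (SD, n = 3 each), and the log2 fold change was −2.67 (SE 0.45, edgeR adjusted p = 0.0078). This arm depended on control libraries to pass the filter, so that its call is a description. miR-743a-3p gave 4, 97 and 109 reads in control samples and 9, 6 and 10 reads under 4-NP. Control 1 lay below all 3 4-NP samples while the other two controls lay far above them. The log2 fold change was −2.97 with a 95% interval of −5.43 to −0.51, and it did not pass the test (edgeR adjusted p = 0.089). Without control 1 it was −3.52 (edgeR adjusted p = 0.0019), but that fit drops the only control below the 4-NP samples. DESeq2 called miR-743a-3p with all samples (adjusted p = 0.016).

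miR-743a-5p had the seed of miR-871-5p and far fewer reads. Its reads were 8.46, 5.04 and 5.25% of those of miR-871-5p in the controls and 11.4, 5.33 and 20.4% after 4-NP, which overlapped. With the reads of both summed, the log2 fold change was −3.58 (edgeR adjusted p = 2.9e-05), a value set mainly by miR-871-5p. What share of the miR-743a-5p reads could have come from miR-871-5p was not tested.

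The arms of miR-743b, the second gene of the stretch, were near the limit of counting. miR-743b-3p gave 28, 15 and 20 reads in control samples and 1, 4 and 10 reads under 4-NP, with no overlap. The log2 fold change was −1.96, with a 95% interval of −3.63 to −0.29, and did not pass the test (edgeR adjusted p = 0.095). Without 4-NP sample 3 it was −2.92 (edgeR adjusted p = 0.048). That fit drops the highest 4-NP sample, and the row passes its filter through controls alone, so that it is a description. miR-743b-5p gave 56, 0 and 46 reads in control samples and 4, 1 and 3 reads under 4-NP. Control 2 was thus below every 4-NP sample, and this arm did not pass the filter. Its log2 fold change was −3.54 without a filter (edgeR adjusted p = 0.123) and −4.19 without control 2 (edgeR adjusted p = 0.004). The latter fit drops the control with 0 reads, and the row passes its filter through the other controls alone. That p is therefore a description and no support for a lower level. Where the reads of miR-743a and miR-743b were summed by arm, both sums were lower after 4-NP, with log2 fold changes of −2.66 for 3p (edgeR adjusted p = 0.023) and −2.81 for 5p (edgeR adjusted p = 0.0083).

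Both arms of miR-742 had fewer reads after 4-NP. miR-742-3p gave 120, 262 and 96 reads in control samples and 12, 17 and 18 reads under 4-NP, so that the lowest control was well above the highest 4-NP sample. The means were 6.92 ± 3.85 and 0.738 ± 0.170 CPM (SD, n = 3 each), and the log2 fold change was −3.20 (SE 0.41, 95% interval −4.18 to −2.23, edgeR adjusted p = 0.0026). miR-742-5p gave 22, 24 and 22 reads in control samples and 4, 0 and 2 reads under 4-NP. The controls differed little from one another, and the 4-NP samples were near the floor, which is 0.128 to 0.150 CPM for the up to 3 reads that a count of 0 allows. The log2 fold change was −3.35 (SE 0.65, edgeR adjusted p = 0.012). In that fit miR-742-5p passed the filter through controls alone, so that its call is a description and no support for a lower level. The log2 fold change depended on single 4-NP libraries, being −4.20, −2.75 and −3.37 without 4-NP sample 1, 2 or 3. Without 4-NP sample 3 the edgeR adjusted p was 0.0502.

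miR-878, which is counted as 1 row with no arm in its name, gave 57, 79 and 10 reads in control samples and 4, 3 and 4 reads under 4-NP. Control 3 was close to the 4-NP samples, the groups did not overlap, and the row missed the filter. Fitted without a filter, its log2 fold change was −3.54 (edgeR adjusted p = 0.021). With 4-NP sample 1, 2 or 3 left out the row passed the filter, and the edgeR adjusted p was 0.063, 0.073 and 0.068. It was 0.0018 without control 3 (log2 fold change −4.05), the control closest to the 4-NP samples. In each of these fits the row passed the filter through controls alone, so that they are a description. DESeq2 with all samples gave −3.58 for miR-878 (adjusted p = 0.0007).

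miR-465, the last gene of the first stretch, had the smallest fold change of those that passed the test and the narrowest interval. miR-465-3p gave 220, 214 and 126 reads in control samples and 31, 33 and 43 reads under 4-NP. The 4-NP samples lay close together and well below the controls. The means were 8.10 ± 2.12 and 1.67 ± 0.282 CPM (SD, n = 3 each), and the log2 fold change was −2.28 (SE 0.26, 95% interval −2.91 to −1.65, edgeR adjusted p = 0.0017). miR-465-5p gave 11, 6 and 8 reads in control samples and 1, 0 and 0 reads under 4-NP, and missed the filter. Over the libraries of each group that is 25 against 1 read, a ratio of 23.3 per mature read with an exact 95% interval of 3.81 to 955, which covers counting error only, since reads were not collapsed to molecules. Without a filter its edgeR adjusted p was 0.028, and with DESeq2 it was 0.063.

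The miR-201 hairpin of the second stretch varied more between samples of a group than between the groups. miR-201-5p gave 3459, 1333 and 2357 reads in control samples and 3069, 1369 and 3697 reads under 4-NP. The groups overlapped, with 104 ± 45.0 and 125 ± 51.6 CPM (SD, n = 3 each) and a log2 fold change of 0.23 (95% interval −0.91 to 1.38, edgeR adjusted p = 0.763). miR-201-3p gave 454, 111 and 48 reads in control samples and 431, 68 and 96 reads under 4-NP. Control 1 and 4-NP sample 1 were both several times higher than the other samples of their group, and the log2 fold change was −0.03 (95% interval −2.32 to 2.27, edgeR adjusted p = 0.985). The log2 fold changes of miR-465-3p and miR-743b-3p lay inside that interval, and those of the other 4 tested members of the first stretch lay below it. The sign of miR-201-3p turned with the scaling, being 0.05 with total-count scaling.

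miR-547 held most of the member reads. miR-547-3p gave 8589, 3670 and 9099 reads in control samples and 10369, 7474 and 7161 reads under 4-NP, and made up 58.9 to 81.0% of all member reads of a sample. Control 2 was the lowest sample, and the other two controls lay within the range of the 4-NP samples. The means were 311 ± 134 and 390 ± 72.1 CPM (SD, n = 3 each), and the log2 fold change was 0.26 (95% interval −0.67 to 1.20, edgeR adjusted p = 0.685). miR-547-5p gave 227, 286 and 242 reads in control samples and 175, 243 and 250 reads under 4-NP. Its groups overlapped, and its log2 fold change of −0.07 had the narrowest interval of the 4 rows, −0.57 to 0.42 (edgeR adjusted p = 0.825). For miR-547 and miR-201-5p, the intervals did not reach a fall as large as the log2 fold change of any tested member of the first stretch. They did overlap the intervals of miR-743a-3p (−5.43 to −0.51) and miR-743b-3p (−3.63 to −0.29), but not those of the other tested members there.

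Each other member was also compared with 1 row of the second stretch, as the log2 ratio to miR-547-3p within a sample. Such a ratio does not depend on the scaling, and 0.5 was added to each count. This comparison was added after the values had been seen. Of the 9 members of the first stretch, 7 had every control ratio above every 4-NP ratio, beside 21.0% of all 548 tested rows other than miR-547-3p itself. Unlike those 548 rows, miR-465-5p and miR-878, which are among the 7, did not pass the filter. Each of the 7 had p = 0.1 in the two-sided exact permutation test, the smallest that 3 against 3 samples can give. Their adjusted p over the 12 ratios was 0.171, and with that limit no ratio could have had an adjusted p under 0.05. In the 5 of these 7 members with reads in every sample, the mean log2 ratio after 4-NP minus that in the controls was −3.50 to −2.65. miR-742-5p and miR-465-5p had samples with 0 reads, and no size is given for them. miR-743a-3p and miR-743b-5p overlapped (exact permutation p = 0.4 each). The ratios of miR-201-3p, miR-201-5p and miR-547-5p to miR-547-3p also overlapped (exact permutation p = 0.9, 0.9 and 0.6). Summed reads of the second stretch were 18.2, 6.54 and 21.1 times those of the first in the controls and 161, 125 and 90.4 times after 4-NP.

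The other miRNA genes of the row were set beside the members (the plot of log2 fold changes along the X chromosome). There were 20 neighbour rows from 10 genes, of which 14 were tested. In the first stretch, 12 of the 12 tested neighbours were lower after 4-NP, beside 12.8% of all tested rows. Of these, miR-3580-3p, miR-871-3p, miR-880-3p and miR-881-5p depended on control libraries to pass the filter, so that this count too is a description. The other 8 had at least 10 reads in every sample and were lower in that fit as well. The 2 tested neighbours of the second, both arms of miR-3585, were not. The edgeR adjusted p for the loss in miR-741-3p, the most abundant neighbour of the first stretch, was 0.00034. It gave 8260, 10922 and 10598 reads in control samples and 989, 1266 and 1369 reads under 4-NP, which did not overlap (log2 fold change −2.94, SE 0.23).

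The 3 neighbours with the lowest p were miR-871-5p, miR-471-5p and miR-881-3p, with log2 fold changes of −3.66, −3.32 and −3.23. miR-3585-3p gave 624, 4965 and 7358 reads in control samples and 707, 3756 and 16652 reads under 4-NP, a spread of more than an order of magnitude within a group (log2 fold change 0.82, 95% interval −2.11 to 3.74). Its 5p arm had a log2 fold change of −0.73 (95% interval −1.84 to 0.38). miR-509, the next miRNA gene towards Fmr1, had narrow intervals, with log2 fold changes of −0.07 for 3p (95% interval −0.40 to 0.25) and 0.10 for 5p (95% interval −0.30 to 0.50).

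**Figure D3:**
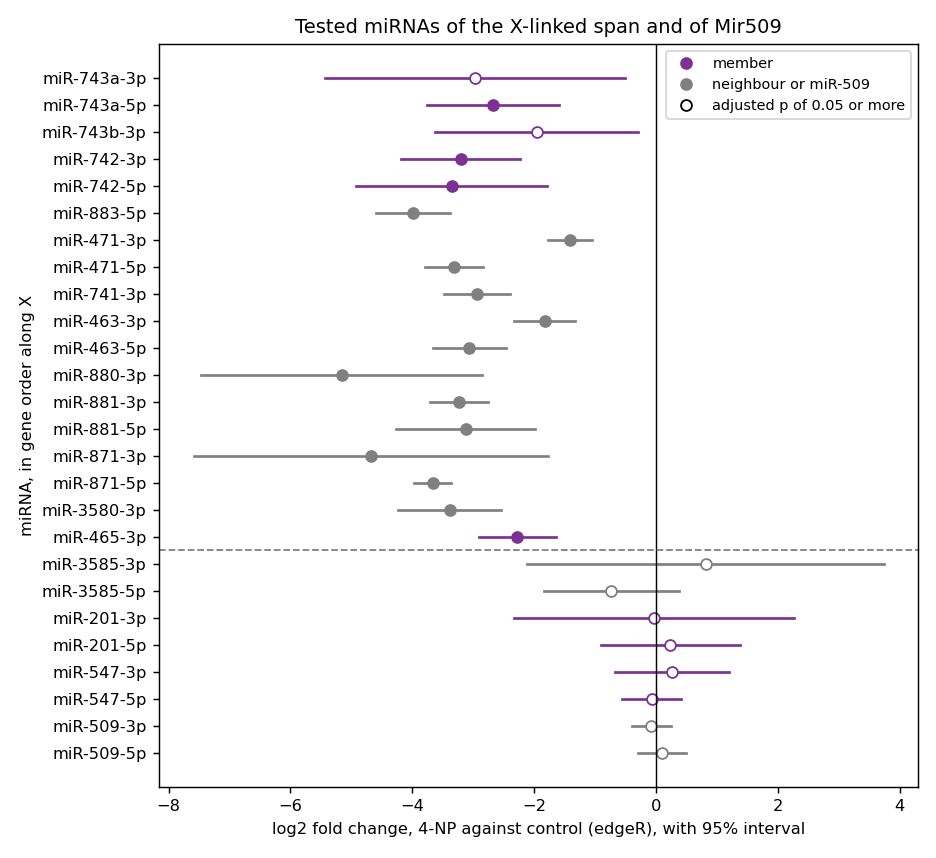
Log2 fold change of each tested miRNA of the X-linked row and of miR-509, 4-NP against control, with 95% intervals from edgeR, ordered as the genes lie along X (members and neighbours in separate colours, open circles for an adjusted p of 0.05 or more). Above the dashed line all 18 rows of the first stretch lay between −5.16 and −1.41, and below it all 8 intervals included 0.

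Counting members and neighbours, the first stretch had 27 rows, of which 18 were tested and 16 were lower. The 18 log2 fold changes ran from −5.16 to −1.41 with a median of −3.16, while the median of all tested rows was −0.02. With at least 10 reads in every sample, a filter that no row can pass through its controls alone, 10 of the 10 rows of the first stretch left were lower, beside 14.5% of the rows left, and 0 of 6 in the second. Among the 10 were the members miR-465-3p and miR-742-3p. Without any filter, 20 of the 27 rows and 6 of the 13 members were lower, beside 9.67% of all rows.

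Within the first stretch, the sum of the members fell less than that of the miR-871, miR-880 and miR-883 rows, which is given as a description with no test. It was 0.230, 0.259 and 0.166 of theirs in the controls, and 0.392, 0.386 and 0.585 after 4-NP. Every 4-NP ratio was above every control ratio. Those rows fell from 140 ± 10.1 to 9.72 ± 0.298 CPM (SD, n = 3 each), 14.4-fold. The other neighbour rows of the stretch summed to 513 ± 76.0 and 69.2 ± 10.0 CPM (SD, n = 3 each), 7.41-fold lower after 4-NP, beside 6.85-fold for the members.

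Outside the row of 17 genes, the X chromosome had 67 mature rows, the arms of miR-509 among them, of which 53 were tested. Of these, 5 were lower and 3 higher after 4-NP, beside 12.8% lower and 7.47% higher among all tested rows. Their median log2 fold change was 0.01. The count of lower rows was 3 without control 1, 4-NP sample 1 or 4-NP sample 2. The count of higher rows was 0 without control 1 or control 2 and 1 without 4-NP sample 3.

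The order of the members by level was the same at its top in both groups. miR-547-3p came first, then miR-201-5p, then miR-547-5p, and the ranges of these 3 did not overlap in either group. In the controls miR-547-5p, miR-201-3p, miR-465-3p, miR-742-3p and miR-743a-5p followed with overlapping neighbours, at means of 11.0, 8.78, 8.10, 6.92 and 6.26 CPM. After 4-NP, miR-201-3p at 9.09 CPM no longer overlapped miR-465-3p at 1.67 CPM, which was next. The 4 rows of the second stretch thus stood above all rows of the first by mean in both groups, and miR-465-5p was last in both.

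The relation between the arms of a hairpin was compared as the log2 ratio of 5p to 3p reads, with 0.5 added to each (the plot of arm ratios). In the controls, 5p was the major arm of miR-201, and 3p that of miR-465, miR-547 and miR-742, in every sample, and the same held after 4-NP. The difference was largest for miR-465, whose mean ratio was −4.40 ± 0.587 in the controls and −5.63 ± 1.09 after 4-NP (SD, n = 3 each). The miR-465-5p arm had 1, 0 and 0 reads after 4-NP, so the size of the ratios there depends on the 0.5 added. The groups overlapped, and the two-sided exact permutation test gave p = 0.2. With 1 added in place of 0.5, its difference was −0.53 in place of −1.23, and that of miR-743a was larger, at −0.81. In the other 5 hairpins p was 0.6 to 1, and the adjusted p over 6 hairpins was 1 for each. Ratios of miR-743a and miR-743b rested on single libraries, since control 1 had 183 reads of miR-743a-5p but 4 of its 3p arm, and control 2 had 0 reads of miR-743b-5p but 15 of its 3p arm.

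**Figure D4:**
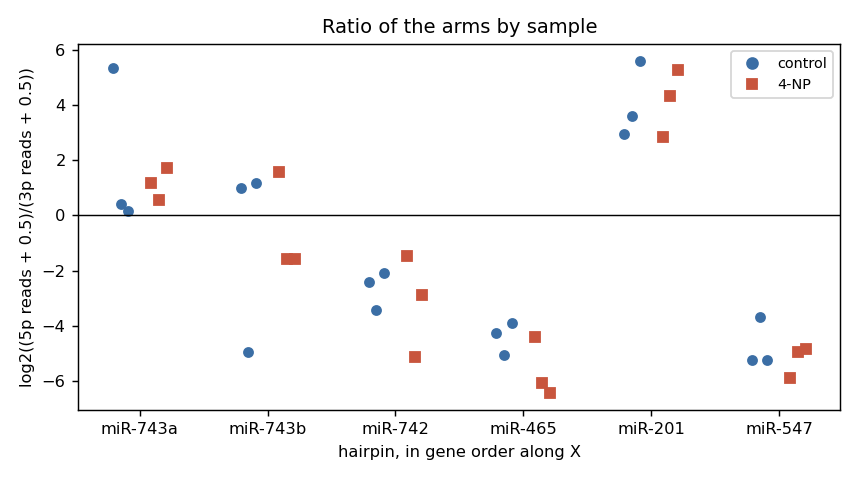
Log2 ratio of 5p to 3p reads (0.5 added to each) for 6 member hairpins, with a point per sample for 3 controls (circles) and 3 4-NP samples (squares). The groups overlap in all 6 hairpins, and single controls stand apart for miR-743a and miR-743b.

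By the rule fixed for likeness, the rows whose centred log2(CPM + 1) profile over the 6 samples lay closest to the median profile of the 9 members with a mean of at least 20 reads over the samples were sought among 480 rows. They were novel_mir52 and novel_mir57, which the authors predicted, then miR-471-3p, miR-126a-3p and miR-881-5p. Their root mean square distances were 0.121, 0.137, 0.169, 0.181 and 0.194 on the log2 scale. The 9 members mixed rows of both stretches, and miR-471-3p and miR-881-5p were neighbours in the first.

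Marker miRNAs of cell types were read in the same libraries. Of the 4 sertoli rows (both arms of miR-202 and of miR-140), 0 were called by edgeR, and at an unadjusted p under 0.05 miR-202-5p was lower (log2 fold change −0.48). The sertoli rows summed to 1382 to 1897 CPM in the controls and 1213 to 1404 CPM after 4-NP. miR-202-5p and both arms of miR-140 were read in every sample, while miR-202-3p had at most 6.14 CPM and was at 0 in 4-NP sample 3. Of 17 germ cell miRNAs 16 had a row and 7 were tested. The 4 arms of miR-34b and miR-34c were higher after 4-NP and miR-292-3p was lower (log2 fold change −2.26, edgeR adjusted p = 0.03). miR-292-3p held 0.649 to 0.939 CPM in controls and 0.0499 to 0.228 CPM after 4-NP. It passed the filter through controls alone, so that its call is a description and no support for a lower level. The most abundant row, miR-449a-5p, held 114 to 129 CPM in controls and 92.4 to 119 CPM after 4-NP. It was not called (log2 fold change −0.25, edgeR adjusted p = 0.247), nor was miR-184 (log2 fold change −0.32). The 16 rows summed to 153 to 169 CPM in controls and 163 to 198 CPM after 4-NP, most of it miR-449a-5p. The rows of miR-290 to miR-295, which mark pluripotent and early germ cells, were below 1 CPM in every sample. Of the 3 rows for peritubular myoid and smooth muscle cells 2 were lower, with sums of 120579 to 136255 CPM and 88379 to 96689 CPM, far above those of the sertoli rows. Both endothelial rows, the arms of miR-126a, were lower, with sums of 6325 to 7615 CPM and 3234 to 3805 CPM. Of the 3 myeloid rows 0 were called, with sums of 8.05 to 10.5 CPM and 8.36 to 14.1 CPM. Of the 4 erythroid rows 1, miR-451-5p, was higher, with sums of 11.0 to 40.7 CPM and 59.3 to 631 CPM. The part of any of these in the fall of the first stretch was not tested.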

How the data were processed

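The authors isolated small RNA on a gel, added adapters that carry UMIs (unique molecular identifiers), sequenced the amplified libraries, checked reads with FastQC and deposited raw read counts of each small RNA per sample, without normalization. HISAT2 and DESeq2 are named in the submitters' processing notes. The miRNA database, the genome build and the rule for reads that match several miRNAs are not given in the sources used here. A further column per sample, named for UMIs, is deposited as another value that is 1 for each member with reads, so it does not count molecules and was not used.

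Samples were grouped by their titles. CPM was computed from the sum of mature counts (22291892 to 23426742 in controls, 20023200 to 22130929 after 4-NP). Counts of all 734 mature miRNAs were fitted in R 4.3.3 with edgeR 4.0.16 (TMM, filterByExpr, quasi-likelihood F test, no replicate block), with Benjamini-Hochberg adjustment over 549 tested rows. Alternatives were DESeq2 1.42.0, RLE and total-count scaling, miR-21-5p left out, limma 3.58.1 on log2(CPM + 1), no filter or a minimum of 10 counts in all samples, the replicate number as a block, summed near-identical miRNAs and leaving out each sample. Arm ratios and ratios to miR-547-3p were tested with two-sided exact permutation tests. On data simulated from these means and library sizes (534 tested rows), 97.0% of 99 miRNAs changed 4-fold and 35.6% of 101 changed 2-fold were recovered. All simulated rows had the same dispersion (0.118), and only rows with a mean of at least 20 reads were changed. These rates do not cover members with fewer reads or a larger spread. No 2 samples of a group agreed within sampling noise (chi-square per degree of freedom 154 to 942).

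All members are named. Of the neighbours, those with the 3 highest mean counts and the 3 lowest p are named. The likeness profile used members with a mean of at least 20 reads. The members, lists and tests were chosen with earlier results of these data known. The sum of miR-743a-5p and miR-871-5p and the ratios to miR-547-3p were added after the values were seen. Sequences, names and gene order came from RefSeq tables of GRCr8. No coordinates were used.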

Additional observations from a re-analysis of the deposited data

How the results depend on the processing

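miR-465-3p and miR-742-3p were lower at an adjusted p under 0.05 in 16 of 16 alternatives, miR-743a-5p in 15 of 15 and miR-742-5p in 13 of 15, the exceptions being the replicate block (log2 fold change −3.45, adjusted p = 0.064) and the fit without 4-NP sample 3. The 15 for miR-743a-5p include the fits in which its reads were summed with those of miR-743b-5p or miR-871-5p. It was not tested with at least 10 counts in every sample. In the main fit, miR-742-5p and miR-743a-5p depended on control libraries to pass the filter, so that their calls are a description. With at least 10 counts in every sample, 2 members were lower and 2 passed the study's thresholds, because fewer rows were tested, and with limma 3 passed the latter. Without a filter, or with DESeq2, 6 members were lower. With limma, miR-743b-3p passed the test (adjusted p = 0.046), but the row depended on control libraries to pass the filter. The log2 fold change of miR-201-3p, which was never called, turned to 0.0037 with RLE factors, 0.0499 with total-count scaling, 0.036 without miR-21-5p, 0.0097 with no filter, 0.14 with the replicate block and 0.13 with limma.

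When each sample was left out in turn, the log2 fold change was −1.17 to 1.40 for miR-201-3p, −0.0918 to 0.63 for miR-201-5p, −0.085 to 0.53 for miR-547-3p and −0.16 to 0.13 for miR-547-5p, with no call. The number of members called lower was 4 to 5 (5 to 6 at the study's thresholds), of neighbours 11 to 12, and of other X-linked miRNAs 3 to 5 lower and 0 to 3 higher.

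Replicate numbers did not pair the samples: deviations of samples with the same number had correlations of −0.25, −0.28 and −0.09, and no sample correlated best with its own number. With the replicate block, 3 members and 12 neighbours were lower, 4 members passed the study's thresholds, and 0 other X-linked miRNAs were higher. Members at a few reads per library are limited by depth, and the causes of these shifts were not tested.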

Other observations

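Chosen after the values were seen and given as a description over the 6 samples, the centred log2(CPM + 1) profiles closest to the median of the 5 members of the first stretch with a mean of at least 20 reads over the samples were those of miR-27b-5p, miR-881-3p, miR-145-3p, miR-23b-5p and miR-665. Their root mean square distances were 0.211, 0.257, 0.266, 0.268 and 0.303 on the log2 scale. miR-881-3p lies in the same stretch and the other four come from autosomes. miR-27b-5p and miR-23b-5p are passenger arms of 1 autosomal cluster, and their log2 fold changes were −1.77 and −2.81. The 1 added to each CPM shrinks changes in rows near 1 CPM, so a small distance does not mean an equal fold change. On this scale, the log2 fold change of miR-465-3p with limma was −1.74, beside −2.28 with edgeR. For the 4 members of the second stretch the closest rows were miR-147, miR-106b-5p, miR-100-3p, miR-19a-3p and miR-155-3p, at distances of 0.115 to 0.203.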
